A study of Tradescantia spathacea with 6 samples.

Results

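RNA-seq profiles were taken from leaves of the monocot Tradescantia spathacea, an ornamental whose leaves are purple underneath, after 2 years in full sunlight (FL, 100%, 3 libraries) or at 30% of that light (low light, LL, 3 libraries). The genes described here are those in which FL replicates 1 and 3 differed from low light at least 2-fold while FL replicate 2 lay at the low light level. They were chosen on CPM (a gene's count scaled to the same total in every library) among genes with a mean of 10 to under 500 CPM over the 6 libraries. In the raised set, the lower of FL replicates 1 and 3 was at least 2 times the highest LL library, and FL replicate 2 was at or below that highest library. In the lowered set, the lowest LL library was at least 2 times the higher of FL replicates 1 and 3, and FL replicate 2 was at or above that lowest library. The raised set held 8 genes and the lowered set 31, so 39 of the 15284 genes in the CPM range and of the 91987 in the table. As shares of the CPM range, the rule took 0.0523% as raised and 0.203% as lowered. All 6 libraries entered the choice, so the members' own levels and fold changes are given as a description of what the rule chose.

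Leaves that develop in strong light and leaves that develop in shade differ in thickness, in the proportion of light-harvesting to electron transport components and in the pigments that screen the tissue. Anthocyanins, the vacuolar pigments behind purple leaf undersides, are among the screens that many plants make more of in strong light. A transcript that responds to light directly can follow the light of the preceding hours, whereas acclimation of a leaf is set in part over its development. The table pairs its Trinity-style identifiers with no gene name, description or sequence. No member can therefore be placed in a pathway, and at most 2 identifiers of each set are printed. An entry may be a whole gene, a fragment or a copy, and reads of near-identical entries can be split among them.

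The libraries had totals of 14748349 to 15958899 counts, of which FL replicate 2 had the highest. By library total, FL replicate 2 lay nearer to low light than the other full sunlight libraries before any member was chosen. Its CPM lay within the range of the 3 LL libraries for 29.1% of the genes in the CPM range. The share was 19.2% for FL replicate 1 and 22.3% for FL replicate 3. Over these genes the median log2 ratio to low light was 0.223, 0.122 and 0.168 in FL replicates 1 to 3. The shares therefore ran in the order of these offsets between libraries, and they were not computed with another scaling. The labels name no plant, leaf age, harvest hour or batch for any library, so whether FL replicate 2 differed in one of these was not tested. Likewise, fewer cells of a type and less RNA per cell cannot be told apart in such leaf samples.

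In the raised set, 7 of the 8 members were read in every library. Their mean over the 6 libraries ran from 10.8 to 181 CPM with a median of 15.3, and 5 of the 7 lay under 20 CPM. The median member had 32.1, 9.59 and 24.4 CPM in FL replicates 1 to 3, against 8.15, 8.02 and 10.9 CPM in LL replicates 1 to 3. The lower of FL replicates 1 and 3 was 2.24 to 4.07 times FL replicate 2, with a median of 2.92 times.

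The member with the widest gap was TRINITY_DN1944_c0_g1, an entry alone in its assembler component. It had 163.3, 40.0 and 162.9 CPM in FL replicates 1 to 3, against 56.75, 51.4 and 47.3 CPM in LL replicates 1 to 3. FL replicates 1 and 3 were nearly equal and 2.87 times the highest LL library at their nearest, while FL replicate 2 was below all 3 LL libraries. The mean was 122 ± 71.1 CPM (SD, n = 3) in full sunlight and 51.8 ± 4.74 CPM in low light, so the 2 groups overlapped through 1 library.

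TRINITY_DN2457_c0_g2 had 30.99, 10.1 and 29.5 CPM in FL replicates 1 to 3, against 5.44, 9.36 and 10.9 CPM in LL replicates 1 to 3. FL replicate 2 lay inside the LL range and close to its top. The mean was 23.5 ± 11.7 CPM (SD, n = 3) in full sunlight and 8.56 ± 2.81 CPM in low light. The other entry of its assembler component, at 19.2, 11.3 and 23.7 CPM in FL replicates 1 to 3 against 19.3, 24.3 and 25.7 CPM in LL replicates 1 to 3, had its lowest value in FL replicate 2, and FL replicates 1 and 3 overlapped low light there.

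The raised member with the highest CPM varied most among the LL libraries. It had 427, 123.1 and 283 CPM in FL replicates 1 to 3, against 32.1, 123.5 and 95.7 CPM in LL replicates 1 to 3. Its FL replicate 2 value met the rule by a ratio of 0.996 to the highest LL library, and it was well above LL replicate 1. In length-scaled units this gene had 949, 235 and 628 FPKM in FL replicates 1 to 3, against 66.5, 265 and 223 FPKM in LL replicates 1 to 3.

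The remaining 4 raised members read in every library were low and close to one another. FL replicates 1 and 3 held them at 19.1 to 33.0 CPM and FL replicate 2 at 4.82 to 9.59 CPM, against 5.81 to 11.8 CPM over the LL libraries. Over all 7, FL replicate 2 was below the whole LL range in 3 genes and inside it in 4, in CPM. The gene at 4.82 CPM in FL replicate 2, among those 3, changed side in FPKM. It had 3.95 FPKM in FL replicate 2, against 2.71, 2.34 and 2.84 FPKM in LL replicates 1 to 3. The others of the 3 stayed below the LL range in FPKM. FL replicate 1 was further from low light than FL replicate 3 in 6 of the 7.

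The eighth raised member met the rule in form only. It had 4360 counts in FL replicate 1, which is 295.6 CPM, and 0 counts in the other 5 libraries, so that 0 was compared with 2 times 0. A count of 0 allows up to 3 counts, here 0.188 to 0.201 CPM, for counting error only. The other 4 entries of its component were read in every library, the highest at 71.3, 53.95 and 66.2 CPM in FL replicates 1 to 3 against 49.8, 54.9 and 46.2 CPM in LL replicates 1 to 3. This gene is left out of the summaries of the raised set, which then cover 7 genes unless stated. The closing counts of members under other settings did not leave it out, except where stated.

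The lowered set was larger. Its 31 members ran from 10.1 to 221 CPM in their mean over the 6 libraries, with a median of 21.1. Of these, 13 lay under 20 CPM, 14 from 20 to under 50, 2 from 50 to under 100 and 2 above. The median member had 6.17, 28.8 and 9.89 CPM in FL replicates 1 to 3, against 26.6, 24.4 and 28.6 CPM in LL replicates 1 to 3. FL replicate 2 was 2.04 to 11.8 times the higher of FL replicates 1 and 3, with a median of 2.72 times. It lay inside the LL range in 23 members and above all 3 LL libraries in the other 8.

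**Figure D1:**
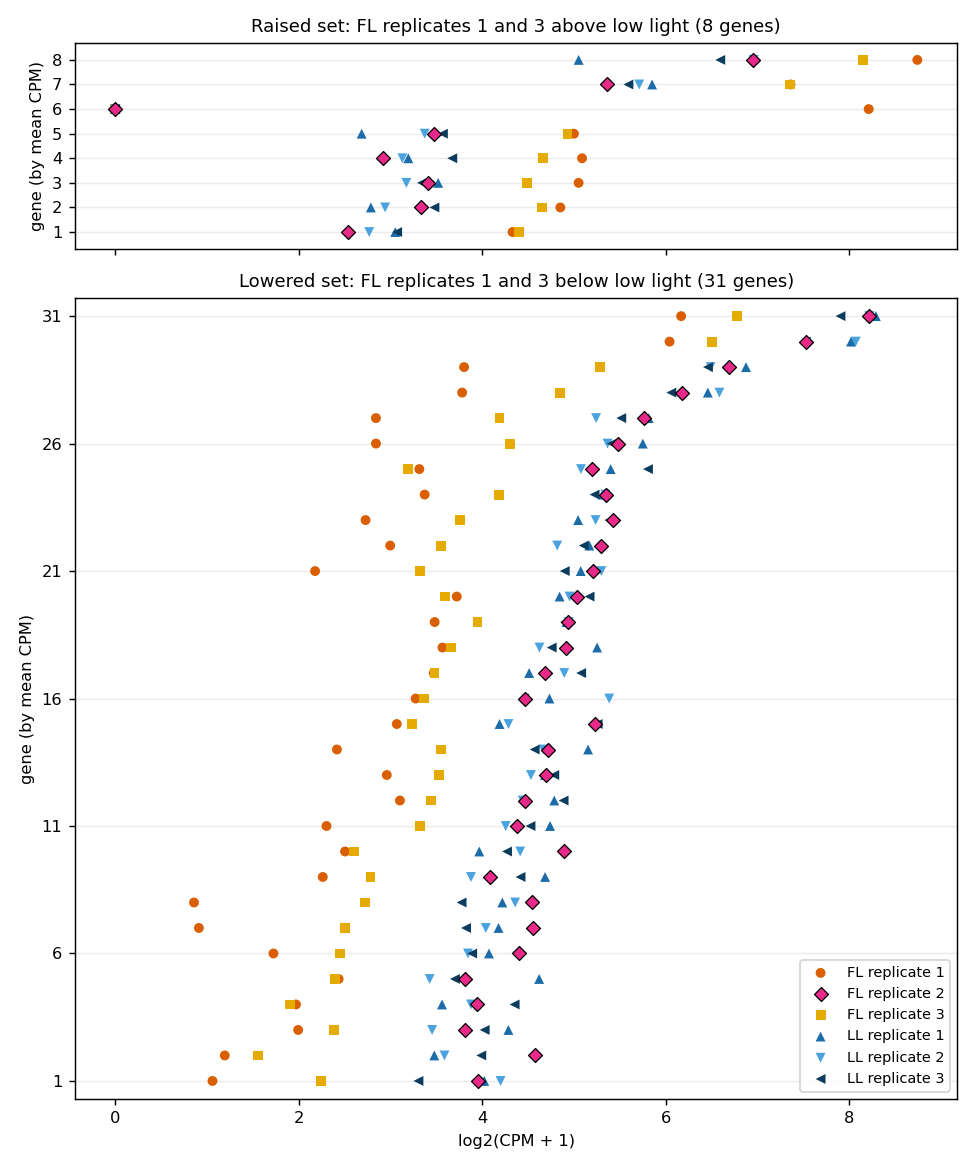
Level of each member in each library as log2(CPM + 1), with genes ordered from the bottom by mean CPM; the upper panel holds the 8 raised and the lower panel the 31 lowered members. FL replicate 2 (diamonds) lies inside the range of the LL libraries (triangles) in 4 of the 7 raised members read in every library and in 23 of the 31 lowered ones, apart from FL replicates 1 (circles) and 3 (squares), and the raised gene with 295.6 CPM in FL replicate 1 is at 0 in the other 5 libraries.

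TRINITY_DN60022_c0_g1 had the widest gap of the lowered set. Its values were 1.29, 22.9 and 1.94 CPM in FL replicates 1 to 3, against 10.1, 11.0 and 14.9 CPM in LL replicates 1 to 3. The highest of all 6 libraries was therefore FL replicate 2, while FL replicates 1 and 3 held 19 and 29 counts. The mean was 8.72 ± 12.3 CPM (SD, n = 3) in full sunlight and 12.0 ± 2.53 CPM in low light, which hides that the lowest LL library was 5.23 times the higher of FL replicates 1 and 3.

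TRINITY_DN16421_c0_g1 had 2.92, 14.4 and 2.74 CPM in FL replicates 1 to 3, against 10.8, 13.7 and 19.4 CPM in LL replicates 1 to 3. Here FL replicate 2 lay in the middle of the LL range, and FL replicates 1 and 3 were nearly equal at the bottom. The mean was 6.69 ± 6.69 CPM (SD, n = 3) in full sunlight and 14.65 ± 4.39 CPM in low light. Only 4 lowered members had a gap of at least 3-fold between FL replicates 1 and 3 and the nearest LL library, these 2 among them, and the median gap was 2.26-fold.

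The lowered member with the highest CPM had 70.9, 296.7 and 109 CPM in FL replicates 1 to 3, against 312, 296.9 and 239 CPM in LL replicates 1 to 3. The next had 64.9, 183.7 and 89.9 CPM in FL replicates 1 to 3, against 259, 268 and 183.5 CPM in LL replicates 1 to 3. In the first of these FL replicate 2 matched LL replicate 2 within 1 CPM, and in the second it was level with the lowest LL library. A member of middle level had 3.53, 36.03 and 9.02 CPM in FL replicates 1 to 3, against 32.7, 38.4 and 28.9 CPM in LL replicates 1 to 3. In all 3 genes FL replicate 1 was the lowest library and FL replicate 3 the next.

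That order was common: FL replicate 1 was below FL replicate 3 in 27 of the 31 lowered members, with a median ratio of 0.651. In the raised set the median ratio of FL replicate 1 to FL replicate 3 was 1.15. In most lowered members FL replicate 1 was thus furthest from low light and FL replicate 3 nearer, while FL replicate 2 was at the LL level by the rule. How often FL replicate 1 lay further out than FL replicate 3 among other genes was not computed. The order is therefore not read as a trait of the members. Among the LL libraries the highest was a median of 1.44 times the lowest in the lowered set and 1.52 times in the raised set, and at most 2.42 and 3.84 times.

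How far FL replicate 2 lay from low light was expressed on the log2(CPM + 0.5) scale. Its distance from the LL mean ran from -0.46 to 0.76 in the 7 raised members, with a median of 0.06, where the mean of FL replicates 1 and 3 was 1.46 to 2.25 above the LL mean. In the lowered members the distance of FL replicate 2 ran from -0.39 to 0.92 with a median of 0.03, where the mean of FL replicates 1 and 3 was -2.57 to -1.24 relative to the LL mean. A value within 0.25 of the LL mean was found for FL replicate 2 in 22 of 31 lowered and 1 of 7 raised members. Both ranges reach past the LL mean on either side, and since the rule used these values they describe the choice only.

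The members were the end of a continuous range. Among all genes of the CPM range, 336 were at least 2-fold higher in FL replicates 1 and 3 than in any LL library (2.20% of 15284, without the gene at 0) and 428 at least 2-fold lower (2.80%). FL replicate 2 was at the LL level in 7 of the 336 (2.08%) and in 31 of the 428 (7.24%). It lay between low light and the nearer of FL replicates 1 and 3 in 296 (88.1%) and 370 (86.4%), and at or past the nearer one in 33 (9.82%) and 27 (6.31%). In most of these genes FL replicate 2 was therefore intermediate, and few had it at the LL level. The genes were chosen for a wide gap in FL replicates 1 and 3 and not in FL replicate 2. A value of FL replicate 2 short of theirs is thus partly set by that choice. The intermediate share was not computed with FL replicate 1 or 3 in its place.

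The position of FL replicate 2 was also scored per gene, with 0 at the LL mean and 1 at the mean of FL replicates 1 and 3. The median position was 0.671 over the 336 raised genes and 0.491 over the 428 lowered genes. With libraries scaled by TMM, a trimmed mean of log ratios, in place of their totals, the medians were 0.693 over 172 raised genes and 0.518 over 609 lowered genes. Positions under 0.5 were found for 63 raised genes (18.8%) and 217 lowered genes (50.7%). The median position was thus lower in the lowered than in the raised genes under both scalings, in 1 library that has no replicate. The genes were chosen on the values of FL replicates 1 and 3 that set the position of 1. Positions were not scored with FL replicate 1 or 3 in its place, so nothing is read from this difference.

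**Figure D2:**
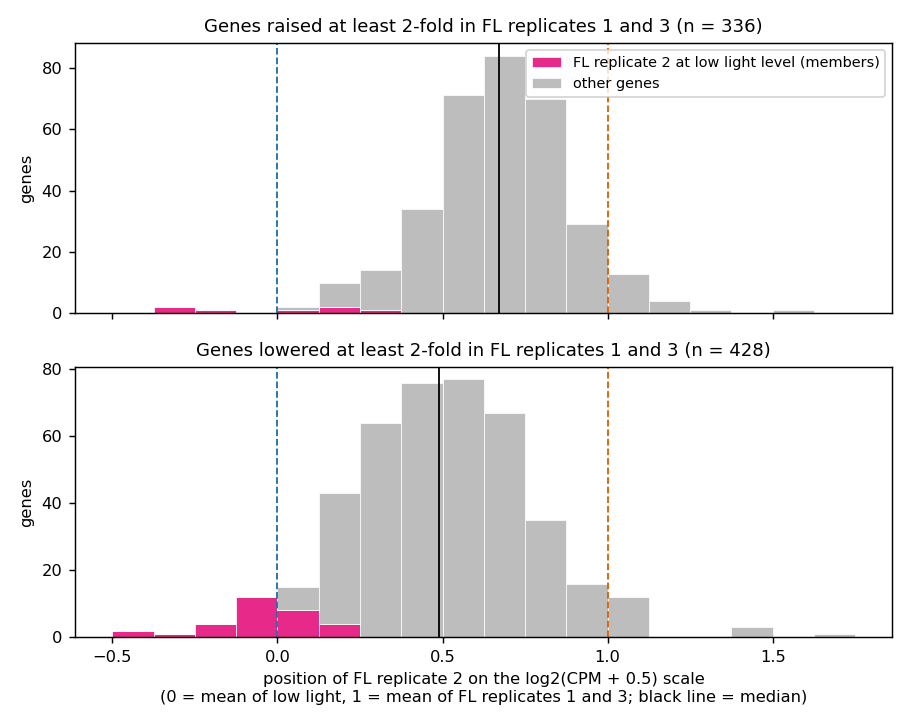
Position of FL replicate 2 between low light (0, blue dashed line) and the mean of FL replicates 1 and 3 (1, orange dashed line), for the 336 raised genes (upper panel) and the 428 lowered genes (lower panel); bars count genes, with members in pink. The black median lines stand at 0.671 and 0.491, and the members lie toward the left of each panel, where other genes overlap them in position.

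Values next to the limits of the rule were alike on both sides. The raised gene just outside the limit on FL replicate 2 had 195, 59.0 and 162 CPM in FL replicates 1 to 3, against 54.3, 49.5 and 58.4 CPM in LL replicates 1 to 3, a ratio of 1.01 to the highest LL library. The lowered gene just outside had 4.47, 26.1 and 8.62 CPM in FL replicates 1 to 3, against 44.4, 26.2 and 31.8 CPM in LL replicates 1 to 3, a ratio of 0.995 to the lowest LL library. Within 10% of the limit on FL replicate 2 there were 3 raised members inside and 6 raised genes outside, and 9 lowered members inside and 26 lowered genes outside. At the 2-fold limit, the nearest genes had ratios of 2.05 inside and 1.98 outside for the raised set, and 2.003 inside and 1.998 outside for the lowered set. Membership of these genes rests on differences of at most 10%. Over the members, the highest LL library was a median of 1.52 times the lowest in the raised and 1.44 times in the lowered set. The margin was not below the LL spread in every gene. A lowered member had 39.9 CPM in FL replicate 2, against 36.4 to 39.6 CPM over the LL libraries.

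The share of members differed between classes of expression level. Among lowered genes they made up 8.78% of 148 from 10 to under 20 CPM, 9.59% of 146 from 20 to under 50, 2.74% of 73 from 50 to under 100 and 3.28% of 61 from 100 to under 500. The median position of all lowered genes in the same classes was 0.485, 0.467, 0.466 and 0.53. The classes from 50 CPM held only 2 lowered members each, so no trend of membership with level is read from these shares. Among raised genes the members were 5 of 132, 0 of 110, 1 of 60 and 1 of 34 in these classes, and the median position was 0.651 to 0.679.

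The same rule was then applied with each other library in the place of FL replicate 2, as a description of how often 1 library lies at the level of the other condition. FL replicate 1 did so in 0 of 143 raised and 1 of 133 lowered genes, and FL replicate 3 in 0 of 126 and 0 of 122. Among the LL libraries, replicate 1 lay at the full sunlight level in 0 of 135 raised and 1 of 142 lowered genes, replicate 2 in 1 of 274 and 1 of 194, and replicate 3 in 2 of 144 and 0 of 125. Over both directions FL replicate 2 reached 4.97% of 764 genes, against 0% to 0.743% for each of the other 5 libraries. With TMM scaling these values were 5.63% for FL replicate 2 and 0.357% to 1.05% for the others. By library total, the shares of the other 5 libraries rest on 0 to 2 genes each, out of 248 to 468. The rule was written for FL replicate 2 with results of these data known, so nothing is read from its larger share.

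**Figure D3:**
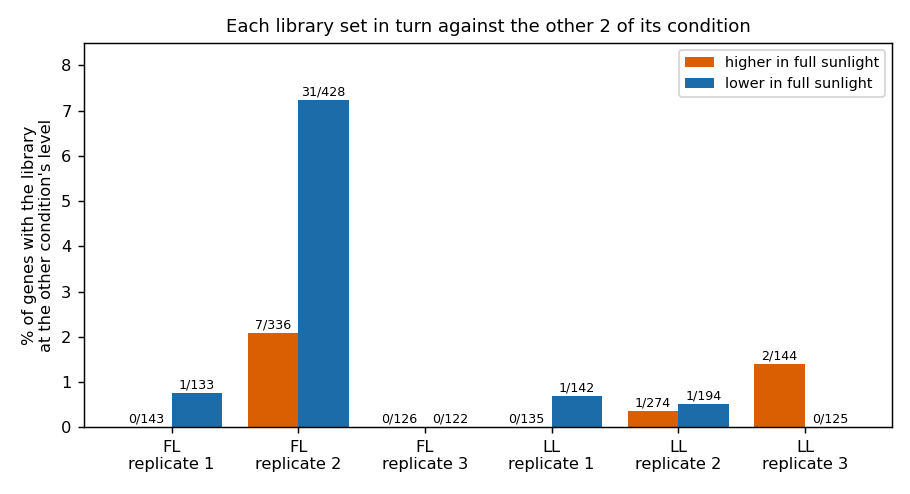
Percent of genes in which the named library lies at the level of the other light condition while the other 2 libraries of its condition lie at least 2-fold away, with the number of such genes over the number of genes compared above each bar; orange bars are genes higher and blue bars genes lower in full sunlight. FL replicate 2 reaches 2.08% and 7.24%, and no other bar exceeds 1.39%.

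The test of full sunlight against low light was fitted on the whole table, and its calls for members are given as a description. With all 6 libraries, edgeR's quasi-likelihood test at a Benjamini-Hochberg adjusted p under 0.05 called 2 of the 7 raised members higher, where it called 6.77% of all 40084 tested genes higher and 9.88% of those in the CPM range. It called 3 of the 31 lowered members lower, where it called 8.63% of all tested genes lower and 13.2% of those in the CPM range. It called 331 of the 336 raised genes and 382 of the 428 lowered genes of which the members are part. Both these genes and the members were chosen on the values that the test compares, so nothing is read from the difference. The median edgeR log2 fold change was 1.04 in the raised members (range 0.91 to 1.53) and -1.05 in the lowered members (range -1.44 to -0.60), beside 0.02 over all tested genes.

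Without FL replicate 2 the same edgeR test called all 7 raised and all 31 lowered members, where it called 8.90% and 12.3% of the 42328 tested genes higher and lower, and 13.1% and 18.4% of those in the CPM range. Median log2 fold changes were then 1.44 (range 1.31 to 1.87) and -2.06 (range -3.10 to -1.46). These are the libraries on which the rule chose the genes, so nothing is read from these calls. Leaving out any of the other 5 libraries, edgeR called 0 members of either set at an adjusted p under 0.05, with 3 to 5 raised and 6 to 10 lowered members at an unadjusted p under 0.05. Over the whole table these 5 fits called 2374 to 4557 genes at an adjusted p under 0.05, against 6173 with 6 libraries. Fewer calls were thus general in these fits. No share of all genes is given for the unadjusted counts. No other tool was run on those subsets.

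**Figure D4:**
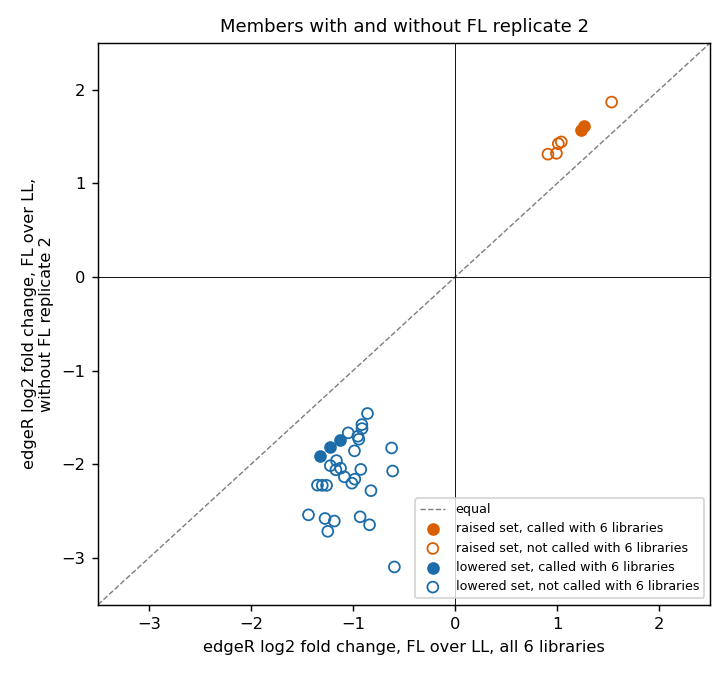
edgeR log2 fold change of full sunlight over low light for the 38 tested members, with all 6 libraries (horizontal) and without FL replicate 2 (vertical); filled points were called with 6 libraries and the dashed line marks equality. All 7 raised points lie above the line at 0.91 to 1.53 on the horizontal axis, and all 31 lowered points lie below it at -1.44 to -0.60.

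Among the named genes, TRINITY_DN2457_c0_g2 was called higher in full sunlight with 6 libraries (edgeR adjusted p = 0.0433), with a log2 fold change of 1.27 and an SE of 0.37. TRINITY_DN1944_c0_g1 was not called, at 1.04 (SE 0.39, edgeR adjusted p = 0.0977). TRINITY_DN60022_c0_g1 was at -0.60 (SE 0.79, edgeR adjusted p = 0.657) and TRINITY_DN16421_c0_g1 at -1.27 (SE 0.55, edgeR adjusted p = 0.141). The call of TRINITY_DN2457_c0_g2 ended without FL replicate 1, FL replicate 3 or any LL library, with edgeR adjusted p of 0.089 to 0.156, and also with limma-voom (adjusted p = 0.0816) and limma on log2(FPKM + 1) (adjusted p = 0.109).

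Features that the rule did not use were the length of an entry and the other entries of its assembler component, a group joined by shared sequence. The effective length implied by the deposited counts and FPKM had a median of 733 bases in the 7 raised members, 1025 in the 31 lowered members and 1287 over the CPM range. It was under 500 bases in 2 raised members, in 7 lowered members (22.6%) and in 11.0% of the genes of the CPM range. No 2 members shared a component. Of the raised members, 4 were alone in their component, and of the lowered members 14 were alone.

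The other 17 lowered members had 29 further entries beside them, of which 20, in 11 components, reached a mean of 2 CPM. In 9 of these 20, FL replicates 1 and 3 were also below all LL libraries, in 4 they were above them, and in 7 they overlapped. Of all 28270 genes that averaged 2 CPM or more, 19.4% had FL replicates 1 and 3 below every LL library and 40.8% above, by library total. FL replicate 2 was at the LL level in 4 of the 9 and short of it in 5. The edgeR test with 6 libraries called 4 of the 20 lower and 2 higher. These entries share sequence with their members, so reads may have been shared as well, and nothing is read from the counts.

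One component held highly abundant entries. The member itself had 6.17, 43.6 and 18.8 CPM in FL replicates 1 to 3, against 52.8, 40.2 and 41.5 CPM in LL replicates 1 to 3, over an implied effective length of only 22.6 bases. An entry beside it had 1295, 3477 and 1949 CPM in FL replicates 1 to 3, against 3830, 4061 and 3476 CPM in LL replicates 1 to 3 (edgeR log2 fold change -0.92, SE 0.34, adjusted p = 0.0892). Another had 166, 769 and 390 CPM in FL replicates 1 to 3, against 1255, 1185 and 986 CPM in LL replicates 1 to 3, and was called lower (log2 fold change -1.53, SE 0.44, edgeR adjusted p = 0.0404). In the more abundant of these entries FL replicate 2 was level with the lowest LL library, and in the other it lay between the conditions. The remaining entry at 2 CPM or more had 7.80, 4.89 and 3.68 CPM in FL replicates 1 to 3, against 4.84, 6.42 and 7.68 CPM in LL replicates 1 to 3, so its groups overlapped (edgeR adjusted p = 0.386).

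In other components FL replicate 2 took opposite places. One lowered member had 6.17, 53.2 and 17.2 CPM in FL replicates 1 to 3, against 55.3, 36.8 and 44.8 CPM in LL replicates 1 to 3. An entry of its component had 167, 173 and 208 CPM in FL replicates 1 to 3, against 105, 114 and 106 CPM in LL replicates 1 to 3, and was called higher (log2 fold change 0.58, SE 0.14, edgeR adjusted p = 0.0242). Thus FL replicate 2 was at the LL level in the member and at the full sunlight level in its neighbour.

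The same was seen beside a lowered member with 4.41, 13.0 and 4.28 CPM in FL replicates 1 to 3, against 23.6, 9.76 and 12.0 CPM in LL replicates 1 to 3. Its neighbour had 73.1, 66.6 and 70.8 CPM in FL replicates 1 to 3, against 39.4, 41.8 and 39.7 CPM in LL replicates 1 to 3 (log2 fold change 0.62, SE 0.12, edgeR adjusted p = 0.00906). Over all 4 entries of the opposite direction, which lay in 3 components, FL replicate 2 was above every LL library. In 1 of these 4 the difference between conditions was small, with an edgeR log2 fold change of -0.0039 once libraries were scaled by TMM. Whether reads were divided between such entries differently in FL replicate 2 was not tested.

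The 3 raised members with neighbours had 3 further entries at 2 CPM or more. FL replicates 1 and 3 were above low light in 0 of them, below it in 1 and overlapping in 2. The one below had 13.8, 14.1 and 13.7 CPM in FL replicates 1 to 3, against 24.2, 17.0 and 25.1 CPM in LL replicates 1 to 3, and was called lower (log2 fold change -0.85, SE 0.18, edgeR adjusted p = 0.0118). Its member had 32.1, 9.59 and 21.5 CPM in FL replicates 1 to 3, against 10.5, 8.02 and 9.15 CPM in LL replicates 1 to 3, so FL replicate 2 again went with low light in the member and with full sunlight beside it. When all entries of a component were summed, the rule still held for 1 of the 3 raised and 7 of the 17 lowered members with neighbours.

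The choice of members also depended on the unit. With the deposited FPKM in place of CPM, 6 of the 7 raised members met the whole rule and 7 its 2-fold part. With the gene at 0 included, 7 of the 8 met the whole rule in FPKM. Of the 31 lowered members, 19 met the whole rule in FPKM and 26 its 2-fold part. With TMM-scaled CPM, 24 of the 31 lowered members and 6 of the 8 raised members, the gene at 0 included, met it.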

How the data were processed

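The deposited table held, for each assembled gene and library, an estimated count and an FPKM value. The submitters' processing notes name RSEM, which divides reads among transcripts, with no version. Aligner, read filters and assembly: not given in the sources used here. Whole-number estimated counts were what the authors deposited; per the file headers the other columns are FPKM, scaled to gene length and library size. The members and lists were chosen with earlier results of these data known. CPM for the rule was scaled by library total. Counts were tested with edgeR 4.0.16 in R 4.3.3 (filterByExpr defaults, TMM, quasi-likelihood F test, two-sided, Benjamini-Hochberg over all tested genes, 6 libraries, no covariate), and the scripts were tested on simulated data. SE values come from the F statistic. Named genes are the 2 of each set with the largest ratio between the nearer of FL replicates 1 and 3 and the nearest LL library. The gene at 0 outside FL replicate 1 did not pass the count filter and was not tested. Implied effective length is count divided by FPKM and library total, the median over libraries with at least 5 counts. Alternatives were other scalings, DESeq2 1.42.0, limma 3.58.1, filters, thresholds, the replicate block and leaving out libraries. Nothing says that libraries came from separate plants, so the spread behind each p-value may be technical. Libraries with the same replicate number did not deviate together (correlations 0.014, -0.036 and -0.025).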

Additional observations from a re-analysis of the deposited data

How the results depend on the processing

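The rule gave 8 raised and 31 lowered members. These were 2.37% and 7.24% of the genes at least 2-fold higher or lower in FL replicates 1 and 3 (the first with the gene at 0). Raised members, the gene at 0 included, numbered 7 with TMM (4.05%) or DESeq2 scaling (4.07%) and 12 with FPKM (4.08%). Lowered members numbered 38, 37 and 31. Added after seeing the data, summed components gave 6 raised and 23 lowered members, and leaving out the gene at 0 gave 7 raised. At 1.5-fold there were 49 raised and 100 lowered members (11.0%), and at 3-fold 1 raised, the gene at 0, and 4 lowered (3.01%). From 2 CPM with no upper limit there were 36 and 113 (12.2%), and from 50 CPM 2 and 4 (2.99%). Leaving out a library gave 8 to 53 raised members (1.38% to 7.77%) and 28 to 101 lowered (5.34% to 14.5%): without FL replicate 3 they were 53 and 101, without FL replicate 1 they were 16 and 52. Without FL replicate 2 the rule cannot be applied. The edgeR test called 6173 genes, limma on log2(FPKM + 1) called 4019 in all, and edgeR at an adjusted p under 0.01 called 1873. Library size alone gave 7645 calls over the whole table, no count filter 8416, the DESeq2 test 6910 and limma-voom 6359. Leaving out a library, edgeR called 2374 to 8976. Members called, 2 raised and 3 lowered, became 5 raised with library size alone, 7 lowered with the DESeq2 test, and 1 raised and 14 lowered with limma-voom. They were 0 and 0 with limma on FPKM (5 and 15 at an unadjusted p under 0.05) and at an adjusted p under 0.01. Without a count filter they were 8 and 30, the 8 including the gene read in FL replicate 1 alone, and leaving out libraries gave 0 to 7 and 0 to 31. The replicate block, whose numbers the labels do not say mark a shared plant or batch, gave 4625 calls, with 1 raised and 4 lowered members. The cause of these differences was not tested. The log2 fold changes of the 4 named genes kept their sign in every fit. TRINITY_DN2457_c0_g2 was not called with the replicate block (edgeR adjusted p = 0.083). TRINITY_DN1944_c0_g1 became called with library size alone (0.0492) and TRINITY_DN16421_c0_g1 with limma-voom (0.0384), both also without a count filter and without FL replicate 2; TRINITY_DN60022_c0_g1 became called only without FL replicate 2. At this depth the members' lowest count in a library was 77 in the raised and 12 in the lowered set.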
